A study of Mus musculus with 8 samples.

Results

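Sulfiredoxin (*Srxn1*) and the 6 peroxiredoxins (*Prdx1* to *Prdx6*) were examined in the gastrocnemius muscle of mice with a muscle deletion of *Nox4*. The 7 genes were chosen by name from the 32390 rows of a table of read counts, each name stood on 1 row, and all 7 were among the 12725 rows with enough counts to be tested. Bulk RNA-seq was performed on 4 control *Nox4* fl/fl mice, whose floxed alleles are intact, and on 4 NOX4-deficient mice of genotype *Mck*-Cre;*Nox4* fl/fl, where the muscle creatine kinase promoter drives a Cre recombinase that deletes *Nox4* in striated muscle. All 8 were chow-fed C57BL/6 males, given as 21 months old in the labels, and were processed in 1 batch. This promoter is a muscle promoter, so blood cells, endothelium and fibroblasts in the tissue keep *Nox4*, and the control mice carry no Cre. The lower level of *Srxn1* in the NOX4-deficient mice was known when the genes were chosen, so its values are given as a description and without a test.

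Peroxiredoxins are abundant thiol peroxidases that reduce hydrogen peroxide with a reactive cysteine, which is regenerated by thioredoxin or, for PRDX6, by glutathione. PRDX1 to PRDX4 are typical 2-Cys enzymes, whose reactive cysteine can be over-oxidized by peroxide to a sulfinic acid and so inactivated, and sulfiredoxin is the ATP-dependent reductase that restores it. NOX4 is an NADPH oxidase that releases hydrogen peroxide, and *Srxn1* is a known target of NFE2L2 (NRF2) and of AP-1, transcription factors that respond to oxidants.

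The 250 bases before the annotated transcription start of *Srxn1* and of *Prdx1* are shown because they held 2 copies each of the AP-1 core motif TGACTCA, counted on either strand (RefSeq sequence, build GRCm38.p6, + strand in both). Capitals mark the matches, where TGAGTCA is TGACTCA on the opposite strand.
Srxn1, chr2:152105274-152105523: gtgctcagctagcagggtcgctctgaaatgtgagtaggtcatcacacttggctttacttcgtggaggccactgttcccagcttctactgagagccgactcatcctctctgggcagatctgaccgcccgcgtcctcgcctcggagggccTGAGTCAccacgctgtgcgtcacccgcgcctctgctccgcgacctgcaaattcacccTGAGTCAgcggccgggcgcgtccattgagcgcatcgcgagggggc
Prdx1, chr4:116685349-116685598: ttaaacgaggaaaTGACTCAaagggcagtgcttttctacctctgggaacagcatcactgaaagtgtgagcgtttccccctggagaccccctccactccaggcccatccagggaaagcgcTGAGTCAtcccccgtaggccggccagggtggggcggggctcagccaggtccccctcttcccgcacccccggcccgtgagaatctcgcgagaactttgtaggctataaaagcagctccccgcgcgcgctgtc
The matches began 102 and 45 bases before the start of *Srxn1*, and 237 and 131 bases before that of *Prdx1*. Windows from 250 bases before to 50 bases after the start were searched for 6 of the 7 genes, *Prdx6* having no entry. The windows of *Prdx2*, *Prdx3*, *Prdx4* and *Prdx5* held no TGACTCA. Of all 32851 windows, 5.2% held the motif and 0.222% held 2 or more copies. The core of the antioxidant response element, TGACNNNGC, stood in the windows of *Srxn1* (29 bases after the start) and *Prdx1* (133 bases before it) and in 12.4% of all windows. The *Prdx1* match overlapped the TGACTCA that began at 131 bases, and together they spelled TGACTCAGC, which 0.454% of windows held. In *Srxn1* the match that began 45 bases before the start is also followed by GC and spells TGAGTCAGC, a form that was not searched for. Each match is a description of letters and not of a bound site.

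**Figure D1:**
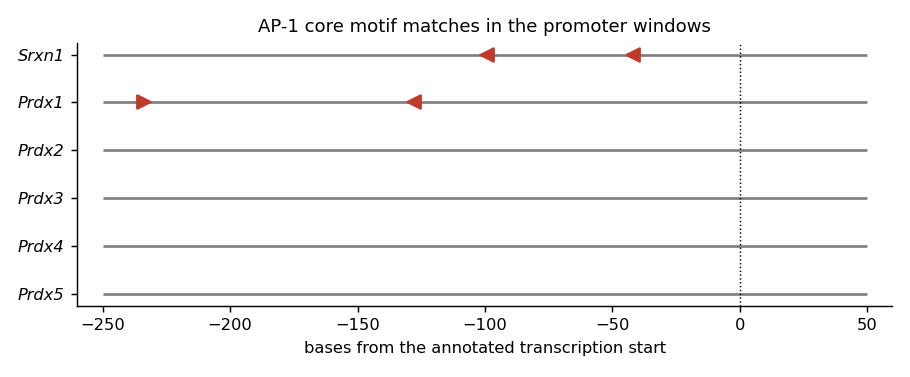
Positions of TGACTCA in the promoter windows of 6 genes, in bases from the annotated transcription start (dotted line); arrowheads point in the direction of the strand that carries the match. *Srxn1* and *Prdx1* each held 2 matches and the other 4 genes held none.

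Each library held between 16350548 and 19804661 counts on genes. The deleted gene was weakly expressed. *Nox4* was at 5.09, 2.47, 1.87 and 3.64 CPM (counts scaled to the library size, with TMM factors) in control replicates 1 to 4 and at 1.74, 2.17, 2.21 and 2.17 CPM in NOX4-deficient replicates 1 to 4, so that control replicate 3 lay within the NOX4-deficient range. The log2 fold change was -0.65 (SE 0.29, edgeR adjusted p = 0.207, and p = 0.2 in a two-sided exact permutation test whose smallest possible p is 0.0286), so the counts alone did not separate the genotypes at *Nox4*. Muscle fiber markers were abundant in all 8 libraries (8 of 8 tested, summed level from 124200 to 153080 CPM in control and 134620 to 154110 CPM in NOX4-deficient mice).

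*Srxn1*, the recycling enzyme, was lower in all 4 NOX4-deficient mice, at 17.3% of the control mean. It was at 157, 170, 137 and 220 CPM in control replicates 1 to 4, where replicate 4 was the highest. In NOX4-deficient replicates 1 to 4 it was at 26.7, 25.3, 31.2 and 35.2 CPM. The groups did not overlap, and the lowest control was 3.88-fold above the highest NOX4-deficient mouse. The means were 171 ± 35.6 and 29.6 ± 4.52 CPM (SD, n = 4 each), a 5.78-fold difference (log2 fold change -2.53, SE 0.16, 95% interval -2.88 to -2.18). Among the 12725 rows tested, *Srxn1* had the 7th lowest log2 fold change. Between 444 and 4240 reads lay behind each of these values, so counting error was small beside the spread between mice (CV 20.8% in control and 15.3% in NOX4-deficient mice). In bulk tissue, fewer cells of a type and less RNA per cell cannot be told apart.

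**Figure D2:**
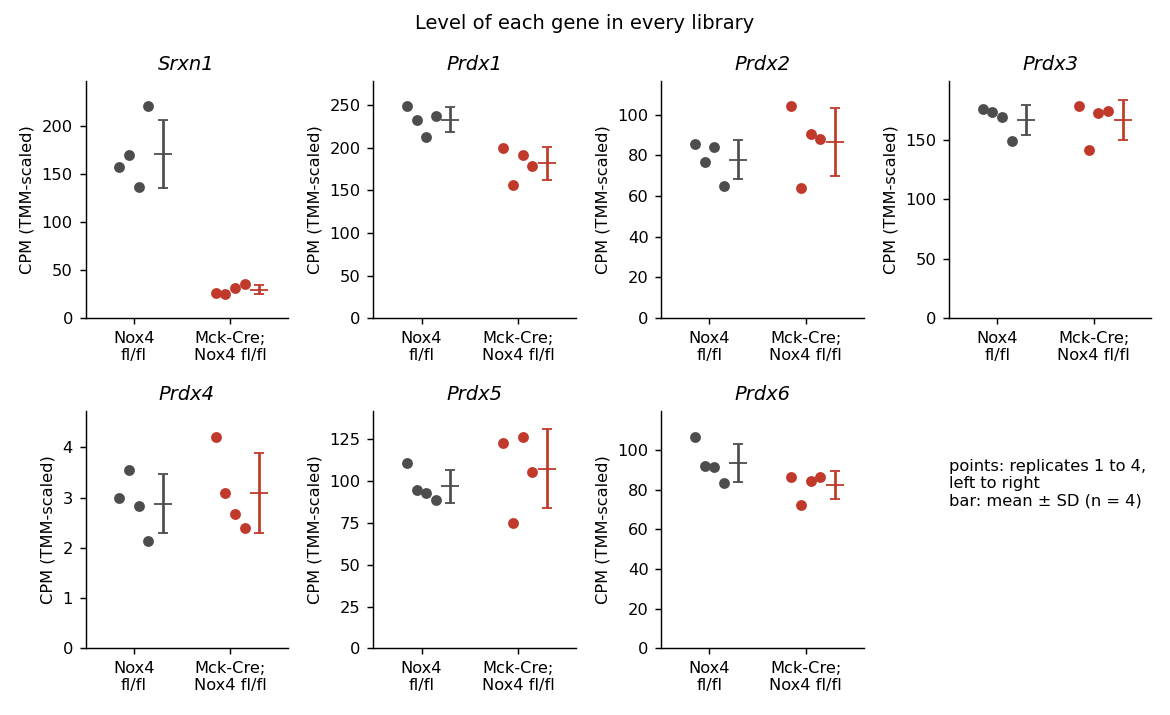
Level of each of the 7 genes in every library, in CPM scaled by TMM on axes that start at 0; points are replicates 1 to 4 from left to right and bars are mean ± SD (n = 4). The groups were apart for *Srxn1* (171 against 29.6 CPM) and, by a smaller distance, *Prdx1* (233 against 181 CPM), and overlapped for *Prdx2* to *Prdx6*.

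Calls required an edgeR adjusted p below 0.05 together with a log2 fold change of more than 0.5 in either direction. Of all rows tested 3.48% were past these limits in the lower direction and 2.68% in the higher. *Srxn1* was among the first, which is no finding, since its difference was known when it was chosen. None of the 6 peroxiredoxins was called by edgeR, DESeq2 or pydeseq2, and 1 of them, *Prdx1*, had an unadjusted edgeR p under 0.05. The groups did not overlap for 2 of the 7 genes, *Srxn1* and *Prdx1*, both lower in NOX4-deficient mice, where 8.97% of all rows did so in that direction and 7.2% in the other. The median log2 fold change of the peroxiredoxins was 0.05, beside 0.01 for all rows.

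*Prdx1* encodes the main cytosolic and nuclear typical 2-Cys peroxiredoxin. It was at 248, 232, 213 and 237 CPM in control replicates 1 to 4 and at 200, 156, 192 and 179 CPM in NOX4-deficient replicates 1 to 4. Every NOX4-deficient mouse was below every control, with replicate 2 the lowest. The log2 fold change was -0.36 (SE 0.10, 95% interval -0.58 to -0.13), or 78% of the control mean, and missed the threshold (edgeR adjusted p = 0.0556). Under DESeq2 the adjusted p was 0.0135 and under pydeseq2 0.0148, with a fold change still under the limit, and without single replicates it reached 0.135. Pseudogenes *Gm21399* (98.3% identical over 597 bases) and *Gm7204* (97.5%) had no row of their own, and how their reads were counted is not given in the sources used here.

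*Prdx2*, the second cytosolic member and a major protein of red blood cells, showed no such shift. It was at 85.5, 76.7, 84.3 and 65.1 CPM in control replicates 1 to 4 and at 104, 63.8, 90.6 and 87.9 CPM in NOX4-deficient replicates 1 to 4. NOX4-deficient mice held both the highest and the lowest value. The log2 fold change was 0.15 (SE 0.14, 95% interval -0.16 to 0.47, edgeR adjusted p = 0.577). Red blood cell genes differed between the groups in the same libraries: of 5 listed markers 3 were tested and 2 rose (2.68% of all rows did so). They were *Hba-a1* (log2 fold change 1.24, edgeR adjusted p = 0.00978) and *Hbb-bs* (1.00, adjusted p = 0.0153). Both globin names stood on 2 rows, and the row with the most counts was used. The other tested marker, *Alas2*, was at 1.00 with overlapping groups (edgeR adjusted p = 0.111). The 3 tested markers summed to 47.6 to 52.7 CPM in control and to 159, 80.0, 118 and 72.3 CPM in NOX4-deficient replicates 1 to 4. The part of these markers in the *Prdx2* values was not tested. Near-identical globin copies can share reads, so the level of each globin gene is uncertain. *Prdx2* also shares 173 exon bases with *Junb* and 177 with *Rnaseh2a* on the opposite strand (GENCODE vM21), whose reads cannot be told apart in unstranded libraries, and it has a close copy without a row, *Tdpx-ps1* (96.3% identical).

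*Prdx3* encodes the mitochondrial typical 2-Cys enzyme. It was at 176, 173, 170 and 149 CPM in control replicates 1 to 4 and at 178, 142, 173 and 174 CPM in NOX4-deficient replicates 1 to 4. The groups overlapped throughout, with 1 low library in each, control replicate 4 and NOX4-deficient replicate 2. Both means were 167 CPM (SD 12.4 and 16.8), and the 95% interval of the log2 fold change ran from -0.23 to 0.23 (edgeR adjusted p = 0.996). Genes of mitochondrial content gave the same 2 low libraries: the 10 genes summed to 5790, 5878, 5772 and 4768 CPM in control and to 6167, 4690, 6256 and 5935 CPM in NOX4-deficient replicates 1 to 4. None of those 10 genes was called by edgeR, DESeq2 or pydeseq2, and 0 had an unadjusted p under 0.05.

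*Prdx4*, the secretory-pathway member that also feeds disulfides into protein folding in the endoplasmic reticulum (ER), was barely expressed. Control replicates 1 to 4 gave 50, 69, 53 and 41 counts, against 70, 61, 51 and 41 in NOX4-deficient replicates 1 to 4. The means were 2.88 ± 0.585 and 3.1 ± 0.795 CPM with overlapping groups (log2 fold change 0.10, SE 0.23, edgeR adjusted p = 0.842). At this depth the 95% interval, -0.41 to 0.61, was the widest of the 7 genes.

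The remaining peroxiredoxins are not restored by sulfiredoxin in the usual account. *Prdx5*, an atypical 2-Cys enzyme of mitochondria, peroxisomes and cytosol, was at 111, 94.7, 92.8 and 88.6 CPM in control replicates 1 to 4 and at 123, 74.6, 126 and 105 CPM in NOX4-deficient replicates 1 to 4. NOX4-deficient replicate 2 was below all controls and replicates 1 and 3 above them (log2 fold change 0.15, SE 0.15, 95% interval -0.18 to 0.48, edgeR adjusted p = 0.602). *Prdx5* shares 409 exon bases with *Trmt112* on the opposite strand.

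*Prdx6*, the 1-Cys enzyme that also has phospholipase activity, was at 107, 92.2, 91.4 and 83.3 CPM in control replicates 1 to 4 and at 86.7, 72.2, 84.5 and 86.4 CPM in NOX4-deficient replicates 1 to 4. Control replicate 4 lay among the NOX4-deficient values, so the groups overlapped (log2 fold change -0.18, SE 0.11, 95% interval -0.41 to 0.05, edgeR adjusted p = 0.336). For *Prdx2*, *Prdx3*, *Prdx5* and *Prdx6* the whole interval lay within 0.5 of 0, whereas those of *Prdx1* and *Prdx4* reached beyond it. These intervals used all the mice. Without NOX4-deficient replicate 2 the log2 fold change of *Prdx2* was 0.27 (SE 0.12) and that of *Prdx5* 0.29 (SE 0.11).

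**Figure D3:**
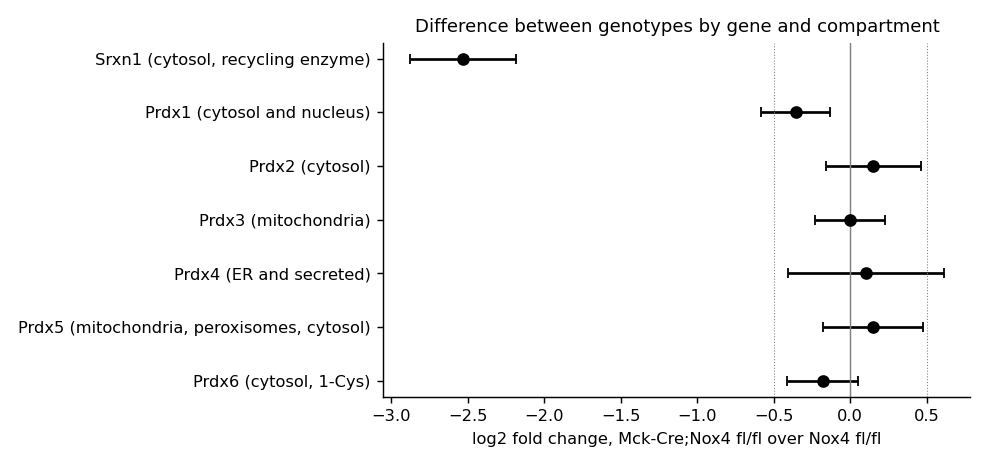
Log2 fold change of NOX4-deficient over control mice for each gene with its 95% interval (edgeR), with the compartment of the protein; dotted lines mark the limit of 0.5 used for calls. *Srxn1* stood at -2.53, *Prdx1* at -0.36, and the intervals of the other 5 genes included 0.

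The spread among mice was shared by most peroxiredoxins. Control replicate 4 was the lowest control for 5 of the 6 genes and control replicate 1 the highest for 5. NOX4-deficient replicate 2 was the lowest of its group for 5 of 6 and replicate 1 the highest for 5. *Srxn1* did not follow this order among controls, since control replicate 4 was its highest. Among NOX4-deficient mice its lowest value was also in replicate 2, but its highest was in replicate 4.

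Levels of different genes were compared per length, as CPM per kb of the longest transcript in the GENCODE basic set. In control mice *Prdx3* (113 ± 8.41) and *Prdx1* (101 ± 6.44) were highest and overlapped. *Prdx5* followed at 76.6 ± 7.61, below every *Prdx1* value. *Srxn1* (60.9 ± 12.7) overlapped both *Prdx5* above it and *Prdx2* (48.3 ± 5.81) below it, *Prdx2* overlapped *Prdx6* (39.2 ± 4.09), and *Prdx4* was far below at 2.91 ± 0.590. In NOX4-deficient mice *Srxn1* was at 10.5 ± 1.61, below every value of *Prdx6* (34.5 ± 2.89) and above *Prdx4* (3.13 ± 0.803). The order depends on the transcript length: with the shortest principal transcript (877 in place of 2294 bases) *Prdx1* was the highest in control mice at 265 ± 16.8. With that of *Prdx2* (1175 in place of 1612 bases) its control level was 66.3 ± 7.97, above the *Srxn1* mean.

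The 6 peroxiredoxins summed to 381 ± 26.6 CPM per kb in control and 368 ± 50.7 in NOX4-deficient mice, and the groups overlapped. Within that sum *Prdx1* made up 26.7 ± 1.95% in control and 21.6 ± 0.940% in NOX4-deficient mice without overlap (47.1% and 40.2% with the shortest transcript). *Prdx3* made up 29.6 ± 1.13% and 30.8 ± 1.48%, with overlap.

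The recycling enzyme was then set against its substrates in each library, as the log2 ratio of *Srxn1* to each substrate in CPM per kb. Against the cytosolic *Prdx1* the ratio was -0.95, -0.74, -0.93 and -0.40 in control and -3.20, -2.92, -2.91 and -2.63 in NOX4-deficient replicates 1 to 4. Against cytosolic *Prdx2* it was 0.08, 0.35, -0.10 and 0.96 in control and -2.76, -2.14, -2.34 and -2.12 in NOX4-deficient replicates 1 to 4. Against mitochondrial *Prdx3* it was -1.09, -0.95, -1.24 and -0.36 in control and -3.67, -3.41, -3.40 and -3.23 in NOX4-deficient replicates 1 to 4. Against each of these substrates all NOX4-deficient libraries were below all controls, and NOX4-deficient replicate 1 was the lowest each time. The ratios use the *Srxn1* mRNA level of whole tissue, so nothing was measured within a compartment.

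For *Prdx4* of the ER the ratio was 4.21, 4.08, 4.09 and 5.19 in control and 1.16, 1.53, 2.04 and 2.37 in NOX4-deficient replicates 1 to 4. The difference of the group means was -2.16 for *Prdx1*, -2.66 for *Prdx2*, -2.52 for *Prdx3* and -2.62 for *Prdx4*, so it was smallest where the substrate was itself lower. For each *Srxn1* transcript there were 5.06, 4.46, 5.40 and 3.14 transcripts of the 4 substrates together in control replicates 1 to 4, by this measure, and 29.1, 23.0, 23.4 and 20.1 in NOX4-deficient replicates 1 to 4. These numbers depend on the transcript length, and with the shortest principal transcripts, an alternative chosen after the data were seen, they were 5.46 to 8.88 in control and 31.8 to 46.4 in NOX4-deficient mice. These ratios rest on the same *Srxn1* values as above and carry no test of their own.

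**Figure D4:**
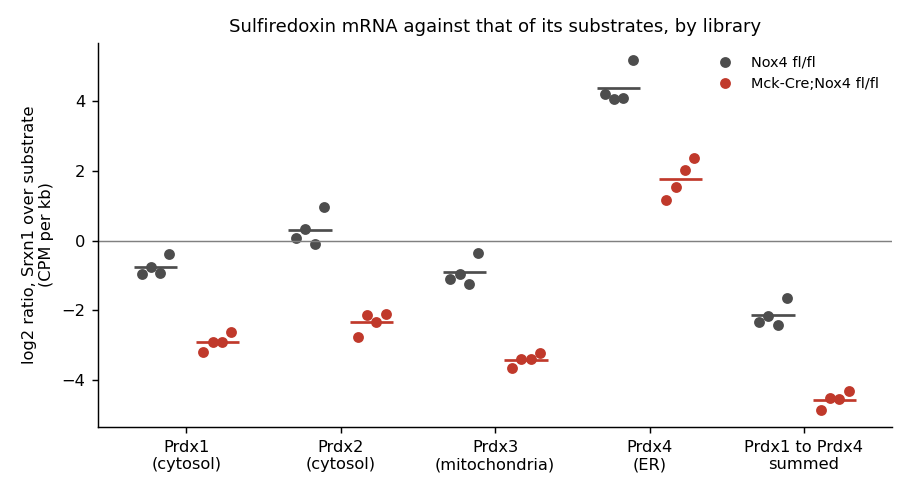
Log2 ratio of *Srxn1* to each typical 2-Cys substrate and to their sum, in CPM per kb; points are replicates 1 to 4 from left to right and lines the group means. The mean ratio differed by -2.16 to -2.66 between groups, and no NOX4-deficient library reached a control.

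Other genes of the pathway were read from 7 lists with 64 genes, of which 63 were tested, 13 were called lower (20.6%, against 3.48% of all rows) and 4 higher (6.35%, against 2.68%), with a median log2 fold change of -0.10. Of 9 thioredoxins and linked genes, which supply electrons to most peroxiredoxins, 1 fell and 1 rose (2 fell without control replicate 2). *Txnrd1*, the cytosolic thioredoxin reductase, fell from 171 ± 32.7 to 86.5 ± 7.33 CPM (log2 fold change -0.98, edgeR adjusted p = 0.00132). *Txnip*, which encodes an inhibitor of thioredoxin, rose from 343 ± 53.9 to 642 ± 33.2 CPM (0.90, adjusted p = 0.00114). The mitochondrial *Txn2* (-0.02) and *Txnrd2* (0.07), which serve PRDX3, and cytosolic *Txn* (-0.08) were not called.

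Of the glutathione-linked genes, 9 of 10 were tested, and 2 fell and 1 rose by edgeR (3.48% and 2.68% of all rows did so). DESeq2 and pydeseq2 each called 4 of the 9. *Gsr*, the glutathione reductase, was at -0.56 and not called by edgeR (adjusted p = 0.0509), with every NOX4-deficient mouse below every control. *Gclm* and *Gclc*, the subunits of the enzyme that limits glutathione synthesis, fell by 1.30 and 0.63 on the log2 scale (edgeR adjusted p = 0.000596 and 0.0161). *Glrx*, a glutaredoxin, rose by 0.57 (adjusted p = 0.0355), a call lost without most single replicates (adjusted p from 0.0547 to 0.0978 in 7 of 8 fits). *Gstp1*, whose product assists PRDX6, had a log2 fold change of -0.16 and was not called.

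Of 9 ER genes that act beside PRDX4 in disulfide formation, none was called by edgeR, DESeq2 or pydeseq2, 3 had an unadjusted edgeR p under 0.05, and 7 of the 9 fold changes were below 0 (median -0.16). The smallest p-values were those of *Pdia3*, a protein disulfide isomerase (log2 fold change -0.45, edgeR adjusted p = 0.0291, under the fold limit but called at -0.51 without NOX4-deficient replicate 3), and *Qsox1*, a sulfhydryl oxidase (-0.43, adjusted p = 0.0882). Of 9 other peroxidases and superoxide dismutases 1 fell, *Cat*, the peroxisomal catalase (log2 fold change -1.31, from 205 ± 16.1 to 82.5 ± 10.7 CPM, edgeR adjusted p = 5.54e-05). *Sod2*, which makes hydrogen peroxide in mitochondria, was at -0.01 and *Gpx1* at 0.12. Of 3 sestrins 1 fell, *Sesn1* (-0.95, adjusted p = 0.0119), and 1 rose without NOX4-deficient replicate 3.

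*Nfe2l2* and its regulators were called lower in 5 of 8 cases and higher in 0 (3.48% and 2.68% of all rows), with all 8 fold changes below 0 (median -0.63). They were the small MAF partners *Maff* (-1.29), *Mafk* (-0.78) and *Mafg* (-0.62), the repressor *Bach1* (-1.16) and *Nfe2l2* itself (-0.65, from 70.3 ± 0.835 to 44.9 ± 8.22 CPM, edgeR adjusted p = 0.0112), so genes of activating and of repressing function fell. Of 16 NFE2L2 targets outside the thiol systems 3 fell and 2 rose. Heme oxygenase *Hmox1* fell by 1.79, *Osgin1* by 1.33 and ferritin light chain *Ftl1* by 0.72, a call lost without control replicate 1 (adjusted p = 0.0530) and without NOX4-deficient replicate 2 (0.0506). *Gsta4* rose by 0.70 and *Ephx1* by 0.53, while the quinone reductase *Nqo1* was at -0.14 and not called. The call of *Ephx1* was lost without control replicate 2, 3 or 4 or NOX4-deficient replicate 1, 3 or 4, whereas that of *Gsta4* stayed in every such fit.

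**Figure D5:**
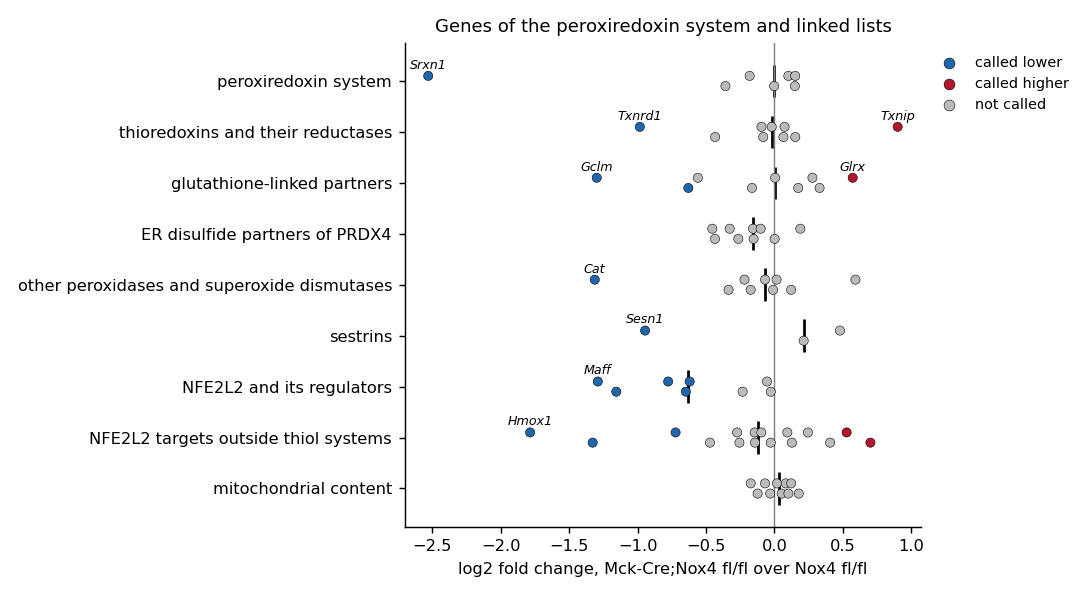
Log2 fold change of every tested gene of the peroxiredoxin system, the 7 linked lists and mitochondrial content; points are genes, colored by the call, and vertical bars the median of each list. *Srxn1* was the lowest point of all lists at -2.53, and NFE2L2 with its regulators had the lowest median at -0.63.

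Markers of other cells were read beside these results. The 8 macrophage and leukocyte markers all had fold changes below 0 and 0 were called by edgeR, DESeq2 or pydeseq2, with 2 at an unadjusted p under 0.05 (summed level 34.3 to 89.4 CPM in control and 17.4 to 47.4 CPM in NOX4-deficient mice). The 7 slow-fiber markers all had fold changes above 0 with 0 called by these tools and 0 at an unadjusted p under 0.05 (summed level 294 to 640 and 386 to 1155 CPM). Without control replicate 2, 1 named slow-fiber marker, *Myl3*, was called higher (log2 fold change 0.97 in place of 0.62, edgeR adjusted p = 0.0497). Their part in the levels of *Srxn1* and *Prdx1* was not tested.

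The genes whose profile over the 8 libraries was most like that of *Srxn1*, by the root mean square (RMS) difference of centered log2 CPM, were *Acot2*, an acyl-CoA thioesterase of mitochondria (RMS 0.135), *Tmem140* (0.221), *Tnfrsf12a*, the receptor of TWEAK (0.312), *Rassf4* (0.321) and *Tacc2* (0.349), where the median over all rows was 1.3. The 5 had log2 fold changes from -2.45 (*Tmem140*) to -1.94 (*Tacc2*). *Prdx1* ranked 1276th in likeness to *Srxn1* (RMS 1.1), the nearest of the 6 peroxiredoxins, and *Prdx4* ranked 8919th (RMS 1.38). These profiles include the difference between groups for which *Srxn1* was chosen, so the ranking largely follows the fold change and is only a description. The genes most like *Prdx1* were *Hnrnph3* (0.0527), *Dnajb2* (0.0746) and *Ube2b* (0.0755), against a median of 0.327.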

How the data were processed

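Poly(A) RNA of gastrocnemius muscle from 8 mice was sequenced as unstranded paired-end libraries by the authors, who used the nf-core RNA-seq pipeline. STAR and the build GRCm39 are named in the submitters' processing notes. The authors deposited raw read counts per gene, without normalization, in 1 column per mouse, and 0 columns were left unmatched. Each library held 16350548 to 19804661 counts. Nothing in the sources links same-numbered mice of the groups, and each group is 4 mice.

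Differences were tested with edgeR 4.0.16 in R 4.3.3 (TMM scaling, filterByExpr, robust quasi-likelihood fit and test with genotype as the only term) and Benjamini-Hochberg adjustment over the 12725 rows tested. The fit was checked on simulated data. Standard errors and 95% intervals come from the same fit. Alternatives were DESeq2 1.42.0, pydeseq2 0.5.4, other size factors, filters and thresholds, a non-robust fit, summed rows of repeated names, the replicate number as a block, and each replicate left out in turn. Transcript lengths and exon overlaps came from GENCODE vM21 and promoter windows from RefSeq, both on GRCm38, which is not the build of the counts, and were matched by gene symbol.

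The 7 genes, the gene lists and the tests were chosen with earlier results of these data known. Named genes are the 7, up to 4 called genes with the smallest p of each list (up to 2 uncalled where none was called), *Nox4*, the 5 and 3 genes nearest to *Srxn1* and *Prdx1*, and markers whose summed level differed. *Nfe2l2*, *Ephx1*, *Txn*, *Txn2*, *Txnrd2*, *Gsr*, *Gstp1*, *Sod2*, *Gpx1* and *Nqo1* were added for their function after their values were seen. Markers of endothelial cells (0 lower and 1 higher, *Vwf*), fibroblasts (0 called, 2 at an unadjusted p under 0.05) and adipocytes (0 called, 0 at an unadjusted p under 0.05) overlapped between groups in their summed levels, with the same counts called by edgeR, DESeq2 and pydeseq2 (the replicate block, which calls *Col1a1* and *Col1a2*, is given with the other alternatives).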

Additional observations from a re-analysis of the deposited data

Results flagged for a closer look

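Among 92 groups of 4 values, 7 held a sample far from the other 3 by Dixon's ratio (the gap to the nearest value over the whole range), where chance gives about 1 in 20, or 4.6. Among the peroxiredoxins, NOX4-deficient replicate 2 was low for *Prdx3* (142 CPM, ratio 0.854) and for *Prdx6* (72.2 CPM, ratio 0.85). Control replicate 4 was high for the log2 ratio of *Srxn1* to *Prdx4* (5.19, ratio 0.881). NOX4-deficient replicate 1 was low for *Nox4* (1.74 CPM, ratio 0.918) and for *Gclm* (16.9 CPM, ratio 0.885). NOX4-deficient replicate 2 was high for *Gclc* (17.9 CPM, ratio 0.905), and replicate 4 was low for *Qsox1* (15.6 CPM, ratio 0.857).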

How the results depend on the processing

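The log2 fold change of *Srxn1* ran from -2.61 to -2.39 over 17 alternatives. *Prdx1* was called in 0 of 17, with an adjusted p under 0.05 in 3. The sign of *Prdx3* turned with library size only (0.0067) and with at least 10 counts in every sample (0.018), and its values without single replicates ran from -0.0545 to 0.0684. Those of *Prdx4* ran from -0.0662 to 0.22, being below 0 without control replicate 4 (-0.02) and without NOX4-deficient replicate 1. Without single replicates, rows called lower numbered 295 to 425 (443 with all) and higher 204 to 317 (341), fewest without control replicate 4 in both, and 227 were higher without control replicate 2. At an adjusted p under 0.01 the counts were 156 and 96. Genes of the 7 lists called higher numbered 2 to 4 (4 with all), with 2 without control replicate 2, 3 or 4 or NOX4-deficient replicate 1 or 4. The cause was not tested.

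With the replicate number as a block, 543 rows were lower and 390 higher, and *Prdx1* had an adjusted p of 0.0485. The fibroblast markers *Col1a1* (0.83, adjusted p = 0.0147) and *Col1a2* (0.81, adjusted p = 0.00304) were called with the block only. The labels do not say what a number shares, and same-numbered libraries deviated together only in part (r = 0.223, 0.147, 0.041 and 0.0412), so not every library correlated best with its own number and no pairing was assumed. Depth limits *Prdx4* most, with 41 to 70 counts per library.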
